A study of Mus musculus with 12 samples.

Results

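The nuclear genes for subunits of the mitochondrial respiratory chain were followed over mouse liver and freshly isolated hepatocytes in which IKKβ was or was not deleted. Members were all probes of the raw intensity table whose single gene symbol begins with Nduf and a subunit letter and number, is Sdha to Sdhd, or begins with Uqcr, Cox4 to Cox8 or Atp5. This gave 118 of 45281 probes and 78 of 19057 genes with a single symbol, and each gene was represented by its probe with the highest mean signal over the 12 arrays. Of the 78 genes, 73 passed the filter on dim probes: 34 of 35 for complex I, 4 of 4 for complex II, 7 of 7 for complex III, 12 of 16 for complex IV and 16 of 16 for complex V. Ndufs1, Cox4i2, Cox6a2, Cox7b2 and Cox8c did not pass, and no probe used here carried the symbol Cox8a, Atp5g1 or Ndufa4l2. One member, Ndufs5-ps, carries the symbol of a pseudogene, so its signal cannot be told apart from that of Ndufs5 itself.

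The 4 groups of 3 Illumina bead arrays were Dhep hepatocytes, FF hepatocytes, Dhep liver and FF liver. Dhep stands for IkkβDhep mice, titled Cre(+), with Ikkβ deleted in hepatocytes, and FF for IkkβF/F mice, titled Cre(-), which carry the floxed allele undeleted. RNA was extracted directly from the tissue or the fresh cells, and the mice were male C57BL6/J, aged 4 to 6 weeks by the sample labels and 6 to 8 weeks by the design text. Other liver cell types, present in Dhep liver, are not labelled as deleted, and no source used here names the promoter that drives Cre. Since the design text counts 4 mice and 4 RNA samples, each group's 3 arrays were treated as repeats of a single RNA. Array-level p-values therefore compare 4 RNA samples and hold no spread between mice.

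The respiratory chain sits in the inner mitochondrial membrane. Complex I takes electrons from NADH and complex II from succinate, complex III passes them to cytochrome c, complex IV hands them to oxygen, and complex V, the ATP synthase, uses the proton gradient that I, III and IV build. Each complex holds a few catalytic subunits and, except for complex II, many small accessory subunits, and most are encoded in the nucleus and imported. Hepatocytes are rich in mitochondria, whose ATP pays for gluconeogenesis, the urea cycle and bile acid synthesis. IKKβ, encoded by Ikbkb, is the kinase that activates NF-κB by marking its inhibitor for degradation.

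Signals are given as log2 intensity after background correction and quantile normalization, and a difference is called higher or lower where limma's Benjamini-Hochberg adjusted p over all 22859 kept probes was under 0.05. Arrays of a group correlated at r = 0.998 and arrays of different groups at 0.974 to 0.992. The one Ikbkb probe above the floor, ILMN_2589556, read 7.67, 7.62 and 7.67 in Dhep hepatocytes, against 7.28, 7.39 and 7.39 in FF hepatocytes. It read 7.38, 7.58 and 7.46 in Dhep liver, against 7.65, 7.54 and 7.66 in FF liver. Its signal in Dhep hepatocytes was thus higher, by 0.31 (limma, adjusted p = 0.000116), and not lower. The sources used here do not say whether this probe lies in the deleted part, so it checks no label, and Dhep and FF below name the arrays as they are labelled. The raw 75th percentile was 105 to 119 in Dhep hepatocytes, 75.5 to 85.7 in FF hepatocytes, 94.7 to 115 in Dhep liver and 101 to 114 in FF liver.

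In Dhep hepatocytes, most subunit genes, among them Ndufa3, Uqcr11, Cox4i1 and Atp5g2, were lower than in FF hepatocytes, while Ndufa9, Sdha, Uqcrc1, Uqcrc2, Cox7a2l, Atp5a1 and Atp5b were higher. Of the 73 members, 53 were lower and 7 higher, where 26.2% and 27.7% of all kept probes were called lower and higher. The median difference of the members was -0.44 (log2), beside 0.00 for all kept probes. The higher count was 4 without Dhep hepatocytes replicate 1 and 13 with median scaling. Members are bright: 57 of the 73 lie in the brightest 10% of kept probes by mean signal, where more probes passed. Of those 57, 41 were lower and 6 higher, or 71.9% and 10.5%, beside 37.8% lower and 37.9% higher of the 2215 other probes of that 10%. Fewer cells of a type and less RNA per cell cannot be told apart in these bulk samples.

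By complex, the medians differed. The counts stand beside the same 26.2% lower and 27.7% higher of all kept probes. Complex I had the lowest median, -0.59, with 28 of 34 genes lower and 1 higher. Complex IV followed at -0.49 with 9 of 12 lower and 1 higher, complex III at -0.28 with 4 of 7 lower and 2 higher, and complex V at -0.26 with 10 of 16 lower and 2 higher. Complex II had 2 of 4 lower, Sdhb and Sdhc, and 1 higher, Sdha, with a median of -0.06 that became 0.16 with median scaling. The medians of complexes I, III, IV and V stayed negative with median scaling, with cyclic loess and in the authors' normalized table.

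**Figure D1:**
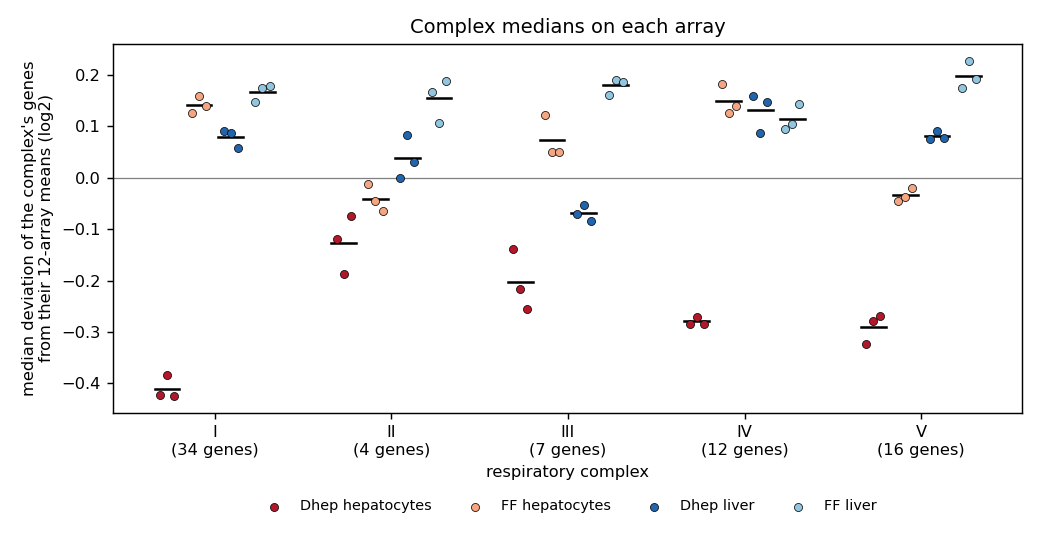
Median deviation of each complex's genes from their own 12-array means (log2, vertical axis) on every array, by complex (horizontal axis) and group; points are arrays and bars group means of 3. After quantile normalization, complex I lies between -0.42 and -0.38 on the 3 Dhep hepatocyte arrays and between 0.12 and 0.16 on the FF hepatocyte arrays. The lower position of Dhep hepatocytes in complex II turns round with median scaling.

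Per array, the median deviation of complex I genes from their 12-array means was -0.42, -0.38 and -0.42 in Dhep hepatocytes and 0.12, 0.16 and 0.14 in FF hepatocytes. It was 0.09, 0.09 and 0.06 in Dhep liver and 0.15, 0.17 and 0.18 in FF liver. After quantile normalization, only the Dhep hepatocyte arrays lay below 0 for complex I, and no array of another group overlapped them. These positions depend on the scaling. The complex I median for Dhep minus FF was -0.59 in hepatocytes and -0.09 in liver, and -0.33 and -0.29 with median scaling. For hepatocytes minus liver in FF it was -0.02, and -0.36 with median scaling. For complex V, Dhep hepatocytes (-0.32 to -0.27) were lowest, then FF hepatocytes (-0.04 to -0.02), Dhep liver (0.07 to 0.09) and FF liver (0.17 to 0.23), and no groups overlapped. For complex II, Dhep hepatocytes (-0.19 to -0.07) and FF hepatocytes (-0.06 to -0.01) came close to each other.

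Among complex I subunits, Ndufa3, a small accessory subunit, had the most negative difference. It read 11.26, 11.20 and 11.21 in Dhep hepatocytes, against 12.29, 12.23 and 12.25 in FF hepatocytes, and its 2 liver groups lay between, at 12.05 ± 0.10 in Dhep liver and 12.14 ± 0.06 in FF liver (SD, n = 3 arrays each). The difference in hepatocytes was -1.03 ± 0.06 (SE; limma, adjusted p = 3.4e-13), 2.05-fold lower, and its second probe gave -1.28. Ndufa5, an accessory subunit of the peripheral arm, read 10.80, 10.84 and 10.79 in Dhep hepatocytes, against 11.46, 11.51 and 11.47 in FF hepatocytes, a difference of -0.67. Ndufb9 and Ndufb5, accessory subunits of the membrane arm, were lower by the same order, at -0.67 and -0.65. Ndufa3 and Uqcrq were the 2 members lower by at least 2-fold, where 1.24% of all kept probes were, and with median scaling neither reached 2-fold, at -0.82 and -0.89; no member was higher by 2-fold, where 1.22% of kept probes were.

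Ndufv1 and Ndufa9 were not lower. Ndufv1, which carries the FMN that accepts electrons from NADH, read 12.53, 12.57 and 12.56 in Dhep hepatocytes, against 12.44, 12.39 and 12.50 in FF hepatocytes, a difference of 0.11 (limma, adjusted p = 0.10). Ndufa9, a large accessory subunit, read 12.26, 12.39 and 12.29 in Dhep hepatocytes, against 12.03, 12.05 and 12.07 in FF hepatocytes. Ndufa9 was higher by 0.26 ± 0.06 (SE; limma, adjusted p = 0.0003), and its arrays did not overlap. Other core subunits of complex I were lower, with differences of -0.47 for Ndufs7, -0.34 for Ndufs8 and -0.21 for Ndufv2, and Ndufs3 differed by -0.05 (limma, adjusted p = 0.46).

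In complex II the subunits split. Sdhc, a membrane anchor, was lower by 0.38 on the log2 scale in Dhep hepatocytes, at 11.20, 11.21 and 11.08, against 11.60, 11.57 and 11.48 in FF hepatocytes. Sdhb, the iron-sulfur subunit, differed by -0.15 (limma, adjusted p = 0.034), a sign that turned to 0.15 with median scaling. Sdha, the flavin subunit that oxidizes succinate, was higher by 0.16 (limma, adjusted p = 0.031), but its probe lay within 0.5 of the floor, at 6.22 ± 0.02 in Dhep hepatocytes and 6.06 ± 0.12 in FF hepatocytes (SD, n = 3 arrays each). Sdhd, the other anchor, differed by 0.02.

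In complex III the core proteins and the small subunits went opposite ways. Uqcr11, a small subunit, read 12.94, 13.01 and 12.96 in Dhep hepatocytes, against 13.78, 13.86 and 13.79 in FF hepatocytes, a difference of -0.84 ± 0.05 (SE; limma, adjusted p = 1.8e-12). Uqcrc1 and Uqcrc2, the large core proteins that face the matrix, were higher by 0.15 and 0.21. Uqcrc2 read 13.08, 12.96 and 12.89 in Dhep hepatocytes, against 12.88, 12.73 and 12.71 in FF hepatocytes, and Uqcrc1 read 11.98, 11.85 and 11.90 in Dhep hepatocytes, against 11.77, 11.71 and 11.79 in FF hepatocytes. Groups did not overlap for either. Uqcrfs1, the Rieske iron-sulfur protein, lay near the floor and differed by -0.10 (limma, adjusted p = 0.23).

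Uqcrq, a ubiquinone-binding small subunit of complex III, had the most negative difference of complex III. Its kept probe, ILMN_1252263, read 7.33, 7.37 and 7.30 in Dhep hepatocytes, 8.69, 8.65 and 8.67 in FF hepatocytes, 7.51, 7.48 and 7.41 in Dhep liver and 7.49, 7.50 and 7.42 in FF liver. Its signal was high in FF hepatocytes and near a common level in the other groups. The difference was -1.34 in hepatocytes (limma, adjusted p = 4.5e-16; 2.52-fold lower) and 0.00 in liver. This probe was designed on a cDNA clone; the probe on the curated Uqcrq mRNA, ILMN_2714442, was below the floor, at means between 6.01 and 6.04 in all 4 groups, so the pattern rests on 1 probe.

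In complex IV, Cox4i1, the largest nuclear-encoded subunit, read 13.28, 13.29 and 13.26 in Dhep hepatocytes, against 13.94, 13.80 and 13.80 in FF hepatocytes, a difference of -0.57 ± 0.06 (SE; limma, adjusted p = 1.3e-08). Cox5a, which lies at the matrix face, differed by -0.07 (limma, adjusted p = 0.28). Cox6a1, the liver form of a regulatory subunit, read 13.12, 13.18 and 13.08 in Dhep hepatocytes, against 13.89, 13.87 and 13.88 in FF hepatocytes, a difference of -0.76. Cox7b was lower by 0.67 on the log2 scale. Cox7a2l, also known as SCAF1 and counted with complex IV by its symbol, was higher by 0.20 (limma, adjusted p = 0.0026). It read 10.73, 10.62 and 10.71 in Dhep hepatocytes, against 10.47, 10.53 and 10.47 in FF hepatocytes.

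In complex V, the alpha and beta subunits of the catalytic head were the members with the most positive differences. Atp5b, the beta subunit, read 14.59, 14.70 and 14.73 in Dhep hepatocytes, against 14.27, 14.18 and 14.24 in FF hepatocytes, a difference of 0.45 ± 0.06 (SE; limma, adjusted p = 4.9e-07; 1.36-fold). Atp5a1, the alpha subunit, read 12.63, 12.71 and 12.55 in Dhep hepatocytes, against 12.14, 12.11 and 12.10 in FF hepatocytes, a difference of 0.51. Its second, dim probe, ILMN_2570875, gave -0.58, so the median over both Atp5a1 probes was -0.03. Atp5g2, a gene for the c subunit of the rotor ring, read 9.23, 9.30 and 9.36 in Dhep hepatocytes, against 10.30, 10.13 and 10.29 in FF hepatocytes, a difference of -0.94 ± 0.06 (SE; limma, adjusted p = 2.4e-12). Atp5e, the epsilon subunit of the stalk, was lower by 0.64 on the log2 scale, and Atp5g3, another c subunit gene, differed by -0.06.

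**Figure D2:**
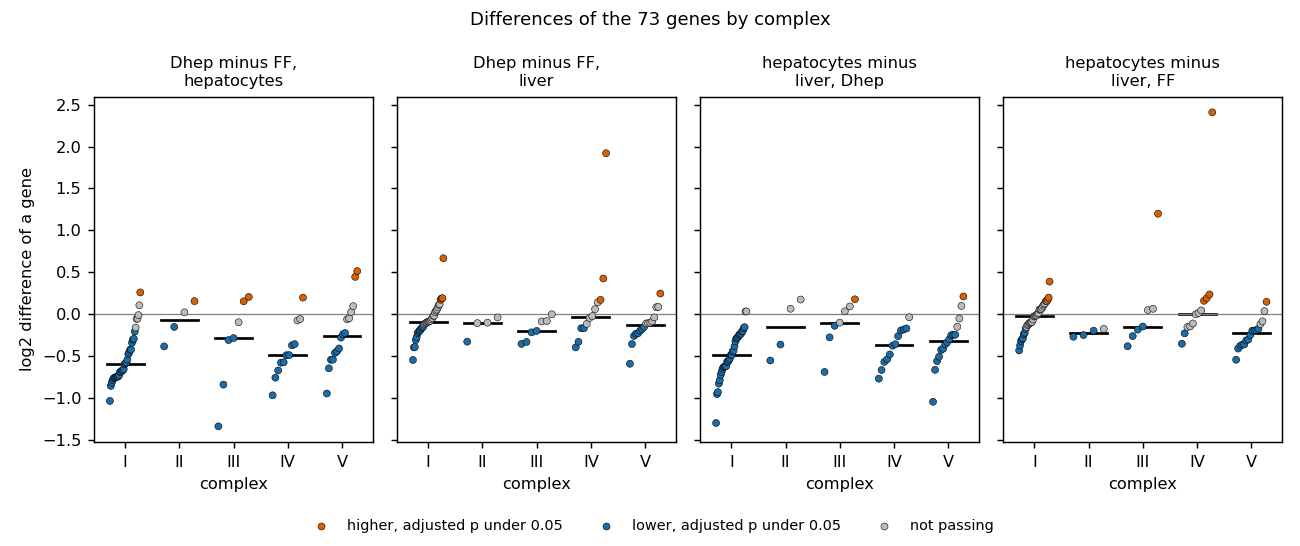
Log2 difference of each of the 73 genes (points, vertical axis) by complex (horizontal axis) in 4 comparisons, with bars at the complex medians. In hepatocytes 53 genes were lower and 7 higher in Dhep than in FF; the medians of complex II in the first panel, III in the third and IV in the fourth change sign with median scaling, and that of I in the fourth with cyclic loess.

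Promoters are shown because the members moved together in part, and because respiratory chain promoters are known for sites of NRF1, of ETS factors such as GABP, and of YY1. RefSeq promoters, windows of 300 bases around the annotated start on GRCm38.p6, were found for 64 of the 78 genes. The letters GCGCANGCG (NRF1) were in 29.7% of them on either strand, beside 7.03% of the promoters of 27025 genes and 9.63% of the protein-coding ones. The letters CCGGAAG (ETS) were in 25% of them, beside 9.93% of all promoters and 12.9% of the protein-coding ones, and AAGATGGCG (YY1) in 10.9%, beside 1.64% and 2.14%. At least 1 of the 3 was in 53.1% of the member promoters and 16.5% of all promoters, and matches of different motifs overlapped in 0 member promoters. Among kept members with a promoter, the NRF1 letters were in 2 of 5 that were higher in Dhep hepatocytes, 12 of 45 that were lower and 5 of 13 that did not pass. The ETS letters were in 0 of 5, 14 of 45 and 2 of 13 in the same order, and the YY1 letters in 1, 6 and 0. The 4 promoters printed here were chosen after their values were seen: 2 of genes lower in Dhep hepatocytes (Cox6a1 and Uqcr11), 1 of a gene that was higher (Uqcrc1) and that of Cox6b2, which differed most between groups. Capitals mark matches to the NRF1 or ETS letters on either strand; Cox6b2 has none.
Cox6a1, chr5:115348909-115349208, minus strand: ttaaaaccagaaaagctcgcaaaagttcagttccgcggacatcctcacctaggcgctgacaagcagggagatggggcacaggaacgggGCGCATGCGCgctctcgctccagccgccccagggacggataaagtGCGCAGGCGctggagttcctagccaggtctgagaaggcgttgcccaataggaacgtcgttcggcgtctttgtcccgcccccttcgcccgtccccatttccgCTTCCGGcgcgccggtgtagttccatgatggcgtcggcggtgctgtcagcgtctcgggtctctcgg
Uqcr11, chr10:80406772-80407071, minus strand: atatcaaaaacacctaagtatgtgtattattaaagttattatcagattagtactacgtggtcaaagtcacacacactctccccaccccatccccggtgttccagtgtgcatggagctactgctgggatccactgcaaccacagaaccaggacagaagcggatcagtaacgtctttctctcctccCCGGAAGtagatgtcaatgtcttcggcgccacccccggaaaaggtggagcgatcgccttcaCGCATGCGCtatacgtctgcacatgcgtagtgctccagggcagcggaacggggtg
Uqcrc1, chr9:108936398-108936697, plus strand: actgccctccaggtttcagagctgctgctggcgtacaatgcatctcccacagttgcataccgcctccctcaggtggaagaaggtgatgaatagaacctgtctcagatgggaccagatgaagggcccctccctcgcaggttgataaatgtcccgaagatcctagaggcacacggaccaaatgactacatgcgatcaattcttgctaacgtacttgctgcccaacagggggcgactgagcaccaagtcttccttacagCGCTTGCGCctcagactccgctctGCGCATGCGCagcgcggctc
Cox6b2, chr7:4753045-4753344, minus strand: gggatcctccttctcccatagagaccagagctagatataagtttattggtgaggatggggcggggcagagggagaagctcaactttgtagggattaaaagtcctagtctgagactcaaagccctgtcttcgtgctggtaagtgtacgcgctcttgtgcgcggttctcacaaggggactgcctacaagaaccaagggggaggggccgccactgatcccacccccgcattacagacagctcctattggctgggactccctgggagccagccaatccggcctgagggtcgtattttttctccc
Cox6a1 and Uqcr11 hold both motifs and Uqcrc1 holds the NRF1 letters without the ETS letters. A match is a description of the letters and shows no binding.

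In whole liver, the members that passed were mostly lower in Dhep than in FF, and Cox6b2 rose far more than any other. Of the 73 members, 29 were lower and 8 higher in Dhep liver, where 14.7% and 13.1% of all kept probes were called lower and higher. The median was -0.10 beside -0.02 for all kept probes. In the brightest 10%, 36.8% of 57 members were lower and 10.5% higher, beside 23.8% and 18.9% of the other 2215 probes. By complex the medians were -0.09 (I), -0.10 (II), -0.20 (III), -0.03 (IV) and -0.13 (V), and none turned positive under the 3 other scalings. The lower count was 53 with median scaling and 19 with cyclic loess or without Dhep liver replicate 1, and the higher count was 3 with median scaling and 5 without FF liver replicate 2. The 29 lower members include Cox8b, at -0.17. Cox8b passed the filter on dim probes only through FF liver, where it was highest, so its call adds no support.

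Core proteins of complex III and the epsilon subunit of the ATP synthase were among the lower ones. Uqcrc2 read 12.78, 12.87 and 12.75 in Dhep liver, against 13.14, 13.22 and 13.10 in FF liver, a difference of -0.35 (limma, adjusted p = 0.00015). Atp5e read 9.90, 9.88 and 9.78 in Dhep liver, against 10.42, 10.30 and 10.61 in FF liver, a difference of -0.59, the most negative in complex V. Ndufb9 was the most negative in complex I, at -0.55, Cox7b in complex IV, at -0.39, and Sdhd in complex II, at -0.33. Atp5b differed by -0.20 (limma, adjusted p = 0.013) and Uqcrc1 by -0.20 (limma, adjusted p = 0.014), so both were lower in Dhep liver and higher in Dhep hepatocytes. The liver call of Atp5b was lost in the authors' normalized table, at -0.15 (limma, adjusted p = 0.077), and with cyclic loess, at -0.084 (limma, adjusted p = 0.32). The 8 higher members were Ndufa6, Ndufb10, Ndufc1, Ndufs3, Cox6a1, Cox6b2, Cox7a2l and Atp5g2. Cox7a2l was higher by 0.43, at 10.89, 10.88 and 10.83 in Dhep liver, against 10.44, 10.42 and 10.46 in FF liver. Cox6a1 was higher by 0.17, a sign that turned to -0.02 with median scaling.

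Cox6b2, the form of subunit 6b known from testis, was the single member with a 2-fold rise in liver, where 0.503% of all kept probes rose 2-fold; no member was lower by 2-fold, where 0.0919% of kept probes were. Its probe, ILMN_2764551, read 7.77, 8.02 and 7.92 in Dhep liver, against 6.06, 5.95 and 5.94 in FF liver, 7.39, 7.54 and 7.33 in Dhep hepatocytes and 8.35, 8.50 and 8.33 in FF hepatocytes. FF liver lay at or under the floor of 6.06 while the other groups lay well above it. The signal in Dhep liver was at least 3.59-fold that in FF liver (limma on measured values, 1.92, adjusted p = 3.2e-16). In hepatocytes the direction was the other way, -0.97 (limma, adjusted p = 2.8e-11). A second Cox6b2 probe, ILMN_1229627, stayed near the floor, with group means between 6.05 and 6.16, so this pattern also rests on 1 probe. Cox6b1, the somatic form, differed by -0.02 in liver (limma, adjusted p = 0.83) and was lower by 0.58 on the log2 scale in hepatocytes.

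Ndufb10, an accessory subunit of the complex I membrane arm, gave opposite answers on its 2 probes, both designed on the same mRNA. The brighter, ILMN_2691261, read 11.35, 11.43 and 11.26 in Dhep liver, against 10.69, 10.77 and 10.57 in FF liver, a difference of 0.67. The other, ILMN_2900216, read 9.34, 9.45 and 9.44 in Dhep liver, against 9.95, 10.12 and 10.00 in FF liver, a difference of -0.62. In hepatocytes both were lower in Dhep than in FF, with differences of -0.69 and -0.71. Of 24 genes with several kept probes, Ndufb10 was the only one whose probes passed in opposite directions in liver, and Atp5a1 and Ndufb8 the only ones in hepatocytes. The probe pairs of Ndufb8, an accessory subunit of the membrane arm, gave -0.54 on the brighter probe and 0.28 on the dim one. Between hepatocytes and liver, probes passed in opposite directions for Ndufb8 in Dhep and for Atp5a1 and Atp5mpl in FF.

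**Figure D3:**
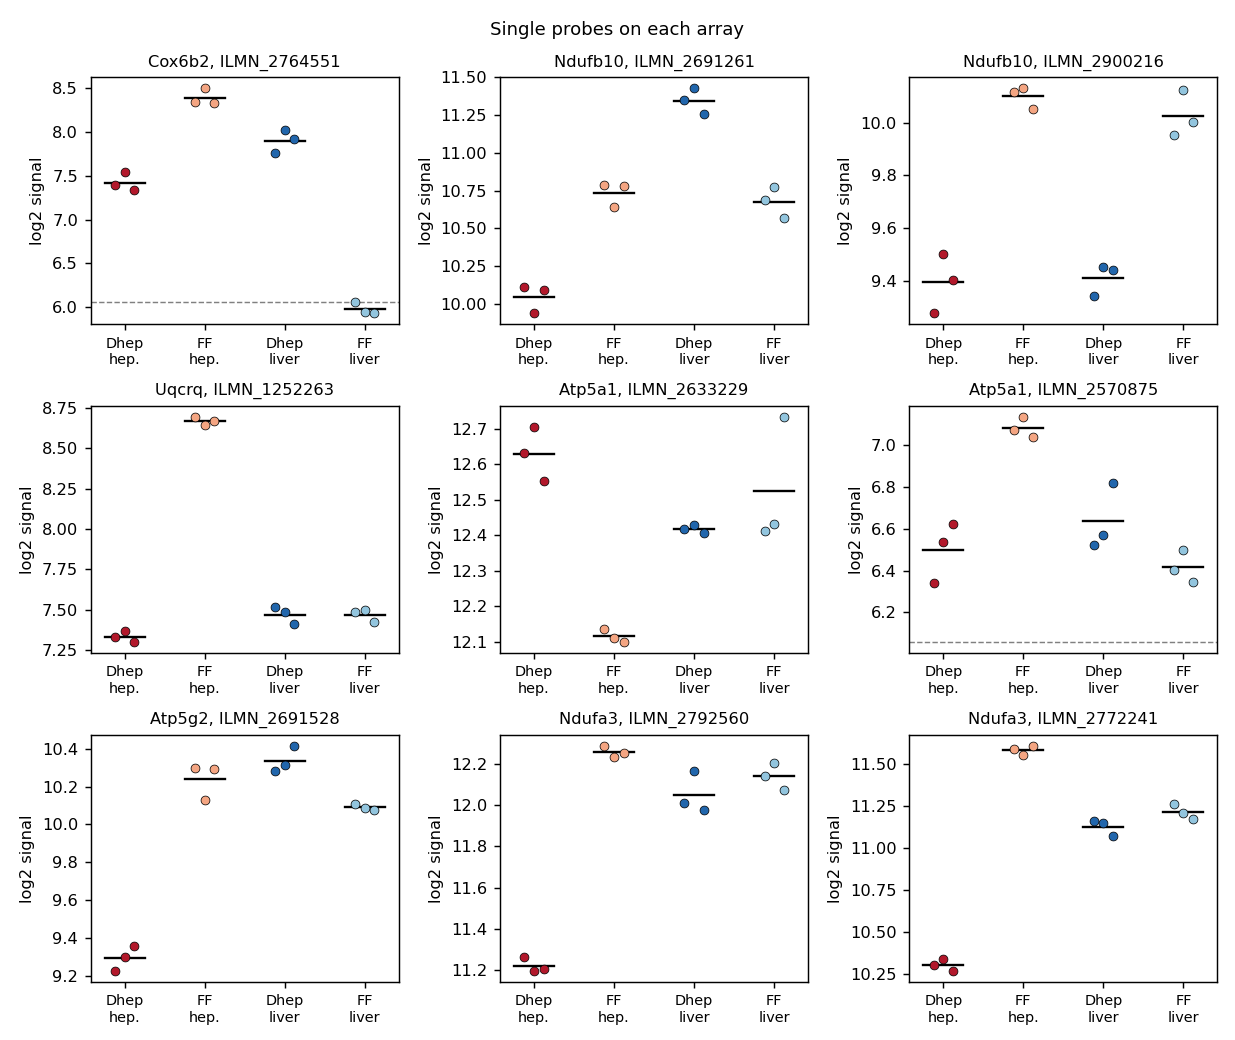
Log2 signal (vertical axis) of single probes on each array (points) with group means of 3 (bars), for all kept probes of 6 genes; the dashed line is the floor of 6.06. The Ndufb10 probes part in liver, the Atp5a1 probes part in hepatocytes, Uqcrq is high in FF hepatocytes, and Cox6b2 is at the floor in FF liver.

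Isolated hepatocytes were set against whole liver within each genotype. These comparisons share arrays with those above, so their values are given side by side and no likeness between them is tested. In Dhep mice, 60 of the 73 members were lower in hepatocytes than in liver and 2 were higher, where 20.5% and 21.4% of all kept probes were called lower and higher. The median was -0.36 beside 0.01 for all kept probes, and in the brightest 10% 84.2% of members were lower, beside 34.6% of the other probes. In FF mice, 29 were lower and 10 higher, where 26.9% and 20.9% of all kept probes were called (62 and 2 members with median scaling), with a median of -0.11 beside -0.03. In FF mice 47.4% of the members in the brightest 10% were lower, beside 41.2% of the other probes.

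In Dhep mice, 32 of 34 complex I genes, 11 of 12 complex IV genes and 12 of 16 complex V genes were lower in hepatocytes than in liver, where 20.5% of all kept probes were. Complex medians were -0.49 (I), -0.15 (II), -0.10 (III, 0.02 with median scaling), -0.37 (IV) and -0.32 (V). Uqcrc2 and Atp5a1 were the 2 higher members, at 0.18 and 0.21, and the higher count was 1 without Dhep liver replicate 1 or 3 or Dhep hepatocytes replicate 1. The second, dim Atp5a1 probe gave -0.14 (limma, adjusted p = 0.15). Ndufb10 and Atp5g2 were lower by at least 2-fold, where 0.472% of all kept probes were. The second Ndufb10 probe, ILMN_2900216, gave -0.018 (limma, adjusted p = 0.85), and Atp5g2 had -0.87 with median scaling, so each call of 2-fold rests on 1 probe or on the scaling. No member was higher by 2-fold, where 0.494% of kept probes were. Atp5g2 read 9.23, 9.30 and 9.36 in Dhep hepatocytes, against 10.28, 10.32 and 10.41 in Dhep liver, a difference of -1.04 (limma, adjusted p = 9.3e-13). Ndufa5 differed by -0.95, Cox6a1 by -0.77, Uqcr11 by -0.69, Cox5a by -0.57 and Sdhc by -0.55, with all arrays of each apart.

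In FF mice, 12 of 16 complex V genes, 3 of 4 complex II genes and 4 of 7 complex III genes were lower in hepatocytes than in liver, where 26.9% of all kept probes were. In complex I, 8 of 34 genes (23.5%) were lower, and in complex IV 2 of 12 (16.7%), neither above that share. Complex medians were -0.02 (I), -0.22 (II), -0.15 (III), 0.01 (IV) and -0.22 (V). With median scaling they were -0.36, -0.63, -0.33, -0.35 and -0.54, beside -0.15 for all kept probes. With cyclic loess complex I had 0.03. Atp5b read 14.27, 14.18 and 14.24 in FF hepatocytes, against 14.83, 14.79 and 14.69 in FF liver, a difference of -0.54 (limma, adjusted p = 3.3e-08). Ndufv1 differed by -0.37, Uqcrc2 by -0.38, Cox5a by -0.35 and Atp5a1 by -0.41. The second, dim Atp5a1 probe gave 0.67 (limma, adjusted p = 8.6e-08), so the direction for Atp5a1 depends on the probe. Cox4i1, Cox6a1, Cox6c and Atp5g2 were among the 10 higher members, by 0.24, 0.16, 0.19 and 0.15, of which Cox6a1 and Atp5g2 turned to -0.03 and -0.28 with median scaling. Cox6b2 was at least 5.03-fold higher and Uqcrq was higher by 1.20 in FF hepatocytes than in FF liver, where 1.25% of all kept probes rose 2-fold, and Uqcrq had 0.83 with median scaling; no member was lower by 2-fold, where 0.192% of kept probes were.

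**Figure D4:**
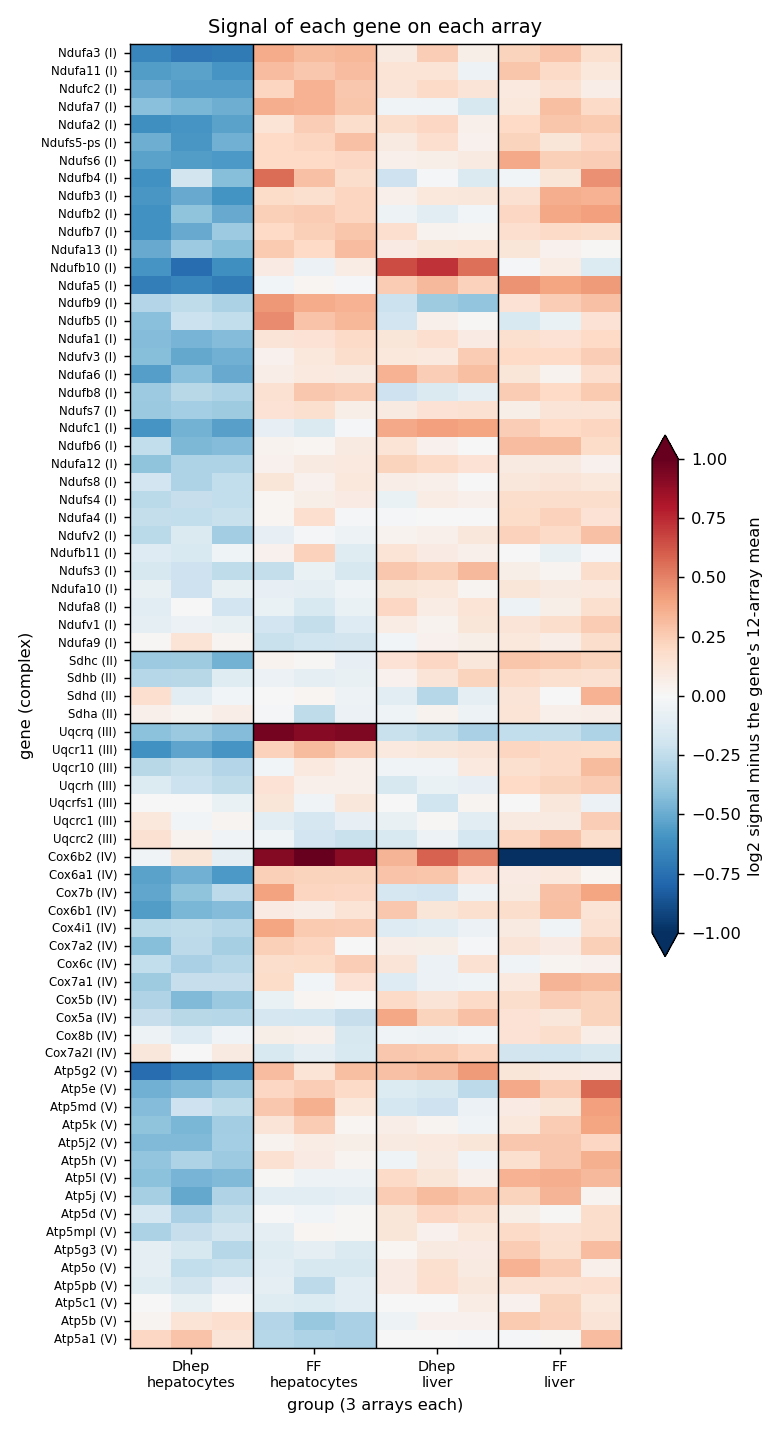
Log2 signal of each of the 73 genes (rows, grouped by complex and ordered by their hepatocyte genotype difference) on each of the 12 arrays (columns), minus the gene's own 12-array mean; red is above and blue below, and the colours stop at 1 and -1. Most rows are blue in Dhep hepatocytes, and those of Ndufa9, Uqcrc2, Atp5a1 and Atp5b are not.

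The genotype difference in hepatocytes was tested against that in liver as an interaction. Of the 73 members, 42 had a lower difference in hepatocytes than in liver and 9 a higher one, where 21.2% and 23.9% of all kept probes were called lower and higher. Complex I contributed 24 of the 42 and complex IV 10. The 9 were Ndufv1, Ndufa9, Sdha, Sdhd, Uqcrc1, Uqcrc2, Atp5a1, Atp5b and Atp5c1, the last being the gamma shaft of the ATP synthase. The median interaction was -0.28 beside 0.02 for all kept probes; with median scaling 14 were lower and 27 higher, and the median was 0.13, beside 0.22 for all kept probes, so its sign, but not its place below the other probes, turned with the scaling. Complex medians were -0.52 (I), 0.07 (II), -0.01 (III), -0.34 (IV) and -0.16 (V), and with median scaling -0.03, 0.34, 0.13, 0.02 and 0.26.

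There were 4 members with an interaction of at least 2-fold, all lower, where 1.78% of all kept probes had one. No member was higher by 2-fold, where 0.748% of kept probes were, but with median scaling Atp5a1 was, at 1.02. With quantile normalization the brighter Atp5a1 probe had 0.62 and its second, dim probe -0.80 (limma, adjusted p = 1.2e-06), so its direction depends on the probe. Cox6b2 had -2.89 ± 0.10, Ndufb10 -1.35 ± 0.09, Uqcrq -1.34 ± 0.07 and Atp5g2 -1.19 ± 0.08 (SE). With median scaling they were -2.44, -0.81, -0.81 and -0.59, and limma's adjusted p stayed under 0.05 for each. FF liver lay at or under the floor for Cox6b2, so the Cox6b2 values are not measured sizes. For Ndufb10 the second probe gave -0.09 (limma, adjusted p = 0.43), so its value belongs to the brighter probe alone. Atp5b had 0.64 (limma, adjusted p = 6.9e-07) and Uqcrc2 0.56 (limma, adjusted p = 1.4e-05), and both stayed positive with median scaling, at 0.77 and 0.89.

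Several subunits have forms made in different tissues. Cox7a1 and Cox8b, forms known from muscle and brown fat, were dim here. Cox7a1 was lower in Dhep hepatocytes by 0.37 on the log2 scale, at 6.44 ± 0.07 against 6.81 ± 0.11 in FF hepatocytes (SD, n = 3 arrays each), and lower in Dhep liver by 0.33. Cox7a2, the liver form, was lower in Dhep hepatocytes by 0.49 and differed by -0.11 in liver (limma, adjusted p = 0.21). Cox8b lay at the floor, with group means between 6.01 and 6.21. Striated muscle markers were near absent, with 2 of 9 kept and summed signals of 37.9 to 49.0 over all arrays, and Ckm and Acta1 did not pass the filter. Of 4 brown fat markers, Ucp1 and Dio2 did not pass, but Cidea and Elovl3 did, with summed signals of 696 to 1096 over all arrays. Elovl3 was lower in Dhep than in FF hepatocytes, at -0.49 (limma, adjusted p = 8.8e-08). Ndufa4, now counted by many with complex IV, was lower by 0.29 in Dhep hepatocytes and by 0.19 in Dhep liver.

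Other genes of mitochondrial biology were taken from lists set by function, and their counts in Dhep hepatocytes stand beside 27.7% higher and 26.2% lower of all kept probes. Of 41 kept assembly factors for the complexes, 25 were lower and 7 higher in Dhep hepatocytes, with a median of -0.27. With median scaling 6 were lower and 18 higher, and their median of 0.15 lay -0.01 from that of all kept probes. Pet100, a complex IV assembly factor, had -0.99. Of 72 mitochondrial ribosomal proteins, 46 were lower and 5 higher, at a median of -0.24, with Mrpl34 at -0.96. With median scaling 12 were lower and 34 higher, and their median of 0.13 lay -0.03 from that of all kept probes. Of 55 cytosolic ribosomal proteins, 44 were lower and 2 higher, with a median of -0.38 that stayed negative at -0.25 with median scaling, and Rpl23 at -1.25.

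The matrix enzymes and carriers went the other way in Dhep against FF hepatocytes. Of 16 kept genes of the tricarboxylic acid cycle and pyruvate dehydrogenase, 10 were higher and 1 lower, with a median of 0.29 that stayed positive under the 3 other scalings. Dlst, the E2 of the 2-oxoglutarate dehydrogenase complex, was higher by 0.68, and Cs, citrate synthase, by 0.37. All 6 kept carriers and channels were higher, with a median of 0.38, among them Slc25a13, an aspartate-glutamate carrier, at 0.59, and Vdac1, the outer membrane channel, at 0.38. For hepatocytes minus liver, the tricarboxylic acid cycle list had medians of -0.36 in FF and 0.02 in Dhep. The carriers and channels had -0.43 in FF and -0.08 in Dhep, beside -0.03 and 0.01 for all kept probes. With median scaling these lists had -0.71 and -0.87 in FF, and 0.15 and 0.05 in Dhep. Of 17 genes for electron carriers and ubiquinone synthesis, 5 were higher and 5 lower, near the share of all kept probes (12 and 1 with median scaling), with Etfdh, which feeds electrons from fatty acid oxidation to ubiquinone, higher by 0.54 and Cycs, cytochrome c, higher by 0.48. Of 17 regulators of mitochondrial biogenesis, 5 were higher and 4 lower, also near that share (15 and 1 with median scaling). Ppargc1b had -0.66 and Ppargc1a, which drives mitochondrial biogenesis, was higher by 0.25. In liver the tricarboxylic acid cycle list had 0 higher and 11 lower in Dhep, at a median of -0.18. There, 13.1% of all kept probes were called higher and 14.7% lower. The lower count of the list was 7 in the authors' normalized table, 9 with cyclic loess and 15 with median scaling. None of the 13 subunits encoded in mitochondrial DNA matched a probe.

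Markers of other liver cells moved with these groups. Their counts compare Dhep with FF hepatocytes, where 27.7% of all kept probes were called higher and 26.2% lower. All 10 kept Kupffer cell and macrophage markers were higher in Dhep hepatocytes, by a median of 1.81, with summed signals of 13748 to 14131 in Dhep hepatocytes, 3892 to 3952 in FF hepatocytes, 9852 to 10256 in Dhep liver and 4293 to 4433 in FF liver. Of 12 sinusoidal endothelial markers, 10 were lower in Dhep hepatocytes, with sums of 4476 to 4658 in Dhep hepatocytes, 8979 to 9336 in FF hepatocytes, 8478 to 8840 in Dhep liver and 7260 to 7557 in FF liver. Of 12 stellate cell markers, 11 were lower, with sums of 4451 to 4614 in Dhep hepatocytes, 10473 to 10825 in FF hepatocytes, 11426 to 11735 in Dhep liver and 11134 to 11423 in FF liver. Of 10 hepatocyte markers, 3 were higher, near the share of all kept probes, and 0 lower. Their median was 0.02, with sums of 133972 to 143243 in Dhep hepatocytes and 129990 to 132577 in FF hepatocytes. The part of these cells in the differences of the respiratory chain genes was not tested.

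The scaling between arrays moved with the same comparisons. The median raw signal of the members was 3026 to 3519 in Dhep hepatocytes and 2705 to 3274 in FF hepatocytes, and these ranges overlap. It was 3867 to 4535 in Dhep liver and 4691 to 4927 in FF liver. The members' lower position in Dhep hepatocytes is thus relative to the other probes of an array. Median scaling shifted the median of all kept probes to 0.16 in the hepatocyte comparison, -0.06 in liver, 0.06 and -0.15 between hepatocytes and liver in Dhep and in FF, and 0.22 in the interaction. The median of the members minus that of all kept probes was -0.45 in the hepatocyte comparison with quantile normalization and -0.38 with median scaling. In that comparison 41 members were lower and 13 higher with median scaling, against 53 and 7 with quantile normalization.

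**Figure D5:**
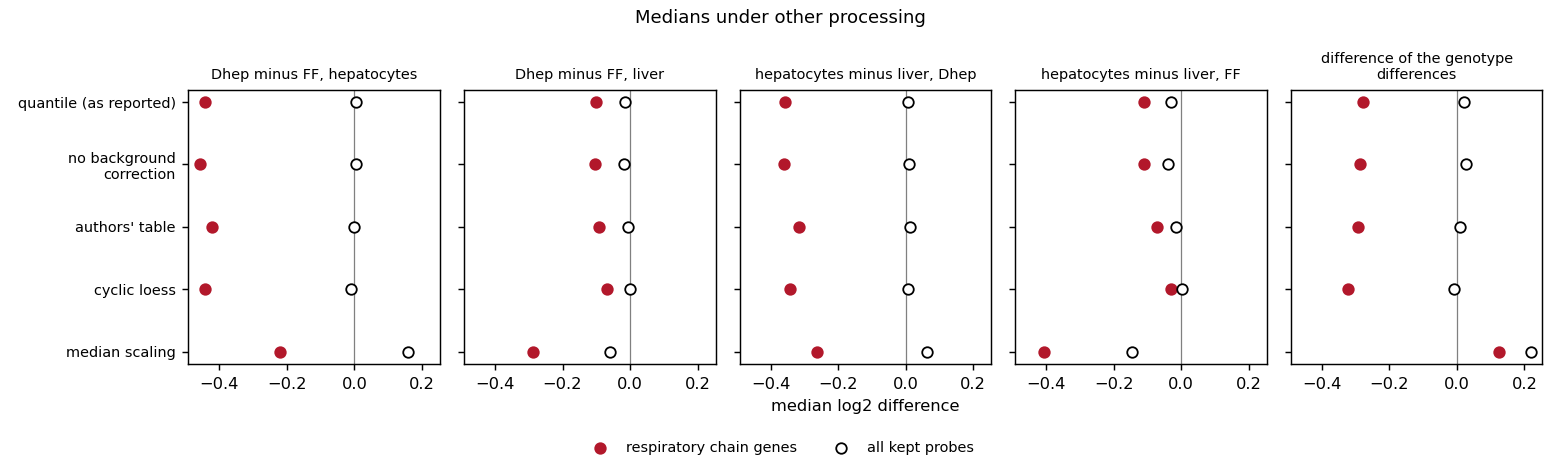
Median log2 difference (horizontal axis) of the respiratory chain genes (filled) and of all kept probes (open) under 5 ways of processing (vertical axis) in each comparison. The filled points lie left of the open ones in every panel and setting, and the interaction median of the genes turns from -0.28 to 0.13 with median scaling.

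A fit on the 4 RNA means, which takes the RNA sample and not the array as its unit, had 1 residual degree of freedom. That residual is the interaction of genotype and preparation, called lower for 42 members and higher for 9 above, and not a spread between mice. This fit therefore cannot decide whether either difference exceeds the spread between mice, and no conclusion is drawn from its counts. It called 0 of 22859 probes for genotype over both preparations and 0 for isolation over both genotypes in limma, with 1126 and 1691 probes, and 11 and 9 members, at an unadjusted p under 0.05. The member medians were -0.24 for genotype, beside -0.01 for all kept probes, and -0.25 for isolation, beside -0.01. The lowest adjusted p of a member was 0.917 for genotype, at Ndufa1, and 0.664 for isolation, at Ndufa5.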

How the data were processed

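RNA of 4 samples was hybridised to 12 Illumina mouse bead arrays, 3 per group, grouped by their titles. The deposited raw table holds bead summary intensities per probe on a linear scale, and the authors' normalized table holds the same probes on a linear intensity scale; BeadStudio is named in the submitters' processing notes, and the steps behind the normalized values are not given in the sources used here. Each raw column correlated best with its own array in the authors' table (12 of 12, r at least 0.999). No detection p-values or control probes were at hand, so in place of neqc the raw intensities were corrected by normexp (offset 50), quantile normalized and put on the log2 scale (limma 3.58.1, R 4.3.3, figures by matplotlib 3.10.9). A probe was kept when its signal exceeded a floor, the median over probes of their mean signals (log2 of 6.06, 66.7 linear), on every array of at least 1 group, which left 22859 of 45281 probes (50.5%). Per GEO's platform annotation 34885 probes had 1 symbol, 18 several and 10378 none; those with several or none were not named.

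All 12 arrays entered one fit of 4 group means (8 residual and 14.8 prior degrees of freedom) with 5 contrasts; Benjamini-Hochberg adjustment ran over all kept probes, at a threshold of 0.05, and 2-fold calls also needed an absolute log2 difference of 1. Precision is limited by the single RNA sample behind each group's arrays. The fit was tested on simulated data whose noise had the spread of the repeat arrays. That simulation held no spread between mice, so it does not bear on the limit of a single RNA sample. Named genes are members past 2-fold, the extremes of each complex and contrast, core subunits, tissue isoforms, and the largest change of each other list; other members named were chosen after their values were seen. The members and lists were chosen with earlier results of these data known. Alternatives were no background correction, offset 16, the authors' table, median scaling, cyclic loess, no filter, a trended and robust prior, a replicate block, only the groups compared, the median over probes and leaving out each array, and for the RNA means the RNA sample as a random block (statmod 1.5.0).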

Additional observations from a re-analysis of the deposited data

Results flagged for a closer look

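After quantile normalization, the genotype difference of 4 respiratory chain genes in hepatocytes differed by at least 2-fold from that in liver (limma, interaction). With median scaling only Cox6b2 of these stayed past 2-fold, at -2.44, and Ndufb10, Uqcrq and Atp5g2 had -0.81, -0.81 and -0.59. Cox6b2 had an interaction of -2.89 (adjusted p = 2.9e-16), with Dhep below FF in hepatocytes and above FF in liver. FF liver lay at or under the floor, so -2.89 is not a measured size. The Cox6b2 pattern rests on 1 probe, since the second Cox6b2 probe stayed near the floor in every group. Ndufb10 had -1.35 (adjusted p = 4.1e-11) on its brighter probe, also with Dhep below FF in hepatocytes and above FF in liver. The second Ndufb10 probe gave -0.09 (limma, adjusted p = 0.43). Uqcrq had -1.34 (adjusted p = 9.2e-13), with Dhep below FF in hepatocytes and a difference of 0.00 in liver. The Uqcrq value also rests on 1 probe, since the group means of the other Uqcrq probe did not reach the floor. Atp5g2 had -1.19 (adjusted p = 5.2e-11), with Dhep below FF in hepatocytes by 0.94 and above FF in liver by 0.25.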

How the results depend on the processing

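Normalization between arrays had the widest effect. With median scaling, members lower and higher were 53 and 3 for genotype in liver, 41 and 13 in hepatocytes, 45 and 4 for isolation in Dhep, 62 and 2 in FF, and 14 and 27 for the interaction, with medians of -0.29, -0.22, -0.26, -0.41 and 0.13. Reversed genes were Cox6a1 (-0.016) in liver, Sdhb (0.15) in hepatocytes, Uqcrq (0.021) for isolation in Dhep, Ndufa3 (-0.18), Ndufb10 (-0.33), Ndufb9 (-0.24), Cox6a1 (-0.031), Cox7a2l (-0.38), Cox7b (-0.45) and Atp5g2 (-0.28) for isolation in FF, and Ndufb9 (0.37), Sdhb (0.39), Sdhc (0.21), Cox5a (0.077), Cox7a2 (0.27), Cox7a2l (0.31), Cox7b (0.38) and Atp5e (0.54) for the interaction. The median over both Atp5a1 probes gave -0.034 in hepatocytes, 0.13 for isolation in FF and -0.091 for the interaction. Cyclic loess gave 19 members lower in liver and medians of -0.069 in liver, -0.030 for isolation in FF and -0.32 for the interaction. In the authors' table the medians were -0.42 in hepatocytes, -0.31 and -0.073 for isolation in Dhep and FF, and -0.22 for isolation over the RNA means, which was -0.36 with median scaling. The median over a gene's probes gave -0.47 in hepatocytes and -0.089 for isolation in FF, and offset 16 left 0 members higher for isolation in Dhep. The cause of these shifts was not tested.

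Leaving out 1 array gave 19 to 29 lower and 5 to 8 higher in liver, 52 to 54 and 4 to 7 in hepatocytes, 52 to 60 and 1 to 3 for isolation in Dhep, 26 to 34 and 8 to 10 in FF, and 38 to 44 and 6 to 9 for the interaction. Medians ran from -0.12 to -0.089 in liver, -0.44 to -0.42 in hepatocytes, -0.38 to -0.33 and -0.13 to -0.089 for isolation in Dhep and FF, and -0.31 to -0.26 for the interaction. With the replicate block, 30 members were lower for isolation in FF and 43 lower and 8 higher for the interaction, and the other counts of members were those reported; same-numbered arrays correlated at -0.0495 to 0.0705 over 18 pairs, 0 of them above 0.1, and 6 of 12 arrays correlated best with their own number, so the numbers were not taken to pair the arrays. Probes near the floor (Sdha, Uqcrfs1, Cox8b, and Cox6b2 in FF liver) limit those genes, and with 1 RNA sample a group no spread between mice enters any array-level p.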
